A study of Mus musculus with 6 samples.

Results

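Sertoli cells are the somatic nurse cells of the seminiferous tubule, and retinoic acid is the vitamin A derivative that they and germ cells use as a signal. Retinol enters cells through the receptor STRA6 and is stored as retinyl ester by LRAT. RDH10 oxidizes retinol to retinal and DHRS3 reduces retinal back to retinol. ALDH1A1 and ALDH1A2 then oxidize retinal to retinoic acid, the binding proteins CRABP1 and CRABP2 carry it in the cytoplasm, and CYP26B1 hydroxylates it for clearance. In the postnatal testis retinoic acid acts through nuclear receptors of the RAR and RXR families and is known for its role in spermatogonial differentiation and meiotic entry.

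The 9 genes of these steps, *Stra6*, *Lrat*, *Rdh10*, *Dhrs3*, *Aldh1a1*, *Aldh1a2*, *Crabp1*, *Crabp2* and *Cyp26b1*, were taken by symbol from the 28262 genes of an RNA-seq count table, and all 9 were found. The libraries came from Sertoli cells of mice aged 20 days, cultured after isolation at 34 °C in 5% CO2, with 3 replicates from *Pa1F/F* mice, which carry floxed *Pa1* alleles, and 3 from *Amh-pa1-/-* mice, in which a Cre recombinase under the *Amh* promoter deletes *Pa1* in Sertoli cells. Both groups carry the floxed alleles, the labels name no further treatment, and floating germ cells were rinsed off during culture. PA1 is a nuclear cofactor, and the comparison asks which transcripts differ when Sertoli cells lack it. The reads of *Pa1* were not analysed here, so the genotype rests on the labels. The study's methods call the replicates biological, but neither they nor the labels say whether each came from separate animals or pools, so p-values measure the spread between these samples, which may be technical.

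Between *Pa1F/F* and *Amh-pa1-/-* Sertoli cells the retinoic acid genes moved in different directions. *Aldh1a2* rose 5.18-fold, *Rdh10* fell 2.25-fold and *Crabp2*, at a low count, fell 2.57-fold. *Aldh1a1*, by far the most abundant of the 9, was 1.30-fold higher and *Stra6* 1.32-fold higher, both past the adjusted p threshold but short of a doubling. *Dhrs3* and *Cyp26b1* had lower means in *Amh-pa1-/-* cells but overlapped between the groups and did not pass the test. *Crabp1* and *Lrat* were too low to be tested.

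The upstream regions of the aldehyde dehydrogenase genes are shown first, because these related genes moved differently: *Aldh1a2* rose, *Aldh1a1* was slightly higher and its close relative *Aldh1a7* fell. Each run holds the 250 bases before a RefSeq transcript start (GRCm38.p6), read 5′ to 3′ on the strand of the gene. Capitals mark the CCAAT box and the octamer ATGCAAAT. The first lies at chr9:71215539-71215788 on the plus strand, the second at chr19:20601718-20601967 on the plus strand, before the second listed start of *Aldh1a1* and inside the annotated gene, and the third at chr19:20727557-20727806 on the minus strand.
Aldh1a2: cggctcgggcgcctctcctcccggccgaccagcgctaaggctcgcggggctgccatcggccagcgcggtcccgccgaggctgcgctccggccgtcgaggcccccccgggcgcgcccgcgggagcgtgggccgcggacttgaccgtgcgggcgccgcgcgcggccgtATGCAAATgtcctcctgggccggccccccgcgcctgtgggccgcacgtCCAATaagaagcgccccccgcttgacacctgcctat
Aldh1a1: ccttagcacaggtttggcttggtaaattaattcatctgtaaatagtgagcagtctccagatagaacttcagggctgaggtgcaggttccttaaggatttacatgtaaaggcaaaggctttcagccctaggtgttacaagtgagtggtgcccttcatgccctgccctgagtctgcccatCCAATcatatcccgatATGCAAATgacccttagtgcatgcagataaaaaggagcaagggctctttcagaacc
Aldh1a7: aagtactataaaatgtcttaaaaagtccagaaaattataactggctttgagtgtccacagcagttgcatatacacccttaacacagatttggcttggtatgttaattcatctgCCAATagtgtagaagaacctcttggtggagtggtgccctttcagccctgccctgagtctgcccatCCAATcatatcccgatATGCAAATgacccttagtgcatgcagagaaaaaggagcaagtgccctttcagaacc

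Counted from the transcript start, the octamer stood at -56 to -49 in both *Aldh1a1* and *Aldh1a7* and at -84 to -77 in *Aldh1a2*. CCAAT stood at -72 to -68 in *Aldh1a1* and *Aldh1a7* and at -36 to -32 in *Aldh1a2*. *Aldh1a7* had a further CCAAT at -137 to -133, and *Aldh1a1* a further one across its start, of which the printed run holds only the first letters. The octamer was looked for after the sequences were seen. On either strand it was present in 570 of 32851 RefSeq promoters of 300 bases (250 before and 50 after the start), or 1.74%, and CCAAT in 37.4%. The *Aldh1a1* and *Aldh1a7* regions were identical at 185 of 250 bases (74%), and those of *Aldh1a1* and *Aldh1a2* at 53.6%. Over the 300 bases the GC content was 78% in *Aldh1a2*, 47% in *Aldh1a1* and 44% in *Aldh1a7*. These are descriptions of letters and not of binding.

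Promoters of 7 of the 9 genes were matched. *Rdh10* and *Crabp2* had no entry. The direct repeats to which RAR and RXR dimers bind, AGGTCA or AGTTCA and a second such copy with 5 or 2 bases between them on either strand, were found in 0.0974% and 0.268% of all promoters and were not present in these letters for any of the 7 genes. The AP-1 motif TGANTCA, present in 7.81% of all promoters, was found among the 7 genes in *Aldh1a1*, before its first listed start, at -57 to -51. The Sp1 letters GGGCGG, present in 35.7% of promoters, were found in *Stra6*, *Lrat*, *Crabp1* and *Cyp26b1*.

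Library depth ranged from 13203757 to 16231443 counts, so that 3 counts, the upper limit that a count of 0 allows, are 0.185 to 0.227 CPM (counts scaled to a common library size). Without molecular identifiers such floors cover counting error only. Replicates 1 and 3 of *Pa1F/F* (chi-square per degree of freedom of 2.45) and replicates 1 and 2 of *Amh-pa1-/-* (1.73) were close to each other. Any other pair within a group had 22.6 to 36.9. The close pairs were further apart than counting noise, which cannot tell separate animals from separate libraries of the same cells. All 6 were kept as separate replicates, and results with the close replicates summed are given at the end. *Pa1F/F* replicate 2 and *Amh-pa1-/-* replicate 3 thus stood apart, and a call of a retinoid gene that 1 of them decides is also given without it. Sertoli cell markers summed to 18047 to 18394 CPM in *Pa1F/F* and 11454 to 14275 CPM in *Amh-pa1-/-* libraries. *Clu* led this sum (mean of 193368 against 119830 normalized counts), and none of the listed markers was at 0 in all libraries. By adjusted p alone 7 of 19 tested were lower and 3 higher. *Gata4* was lower (7734 against 4197) and *Dmrt1* higher (1575 against 2456). *Sox9* (4654 against 4287), *Wt1* (5083 against 5547) and *Dhh* (4980 against 4966) did not pass the adjusted p. *Trf*, *Tsx* and *Rhox5*, which are also Sertoli cell markers, had at most 6, 12 and 16 counts and were not tested. With 14919 genes tested, 12.0% were called, 6.56% lower and 5.44% higher, where a call needs edgeR's quasi-likelihood adjusted p to be under 0.05 and the log2 fold change to reach 1 in either direction.

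Of the 9 genes, 7 passed the filter on low counts and were tested. Calls were made for 3 of them, *Rdh10* and *Crabp2* lower and *Aldh1a2* higher, against the 12.0% of all tested genes (6.56% lower, 5.44% higher). By adjusted p alone 2 were lower and 3 higher, the same genes with *Aldh1a1* and *Stra6* added, against 17.1% and 18.2% of all tested genes (35.3% in either direction). The normalized counts of the groups did not overlap for these same 5 genes, 2 lower and 3 higher, against 26.1% and 26.3% of all tested genes (52.4% in either direction). For these 7 the median was -0.84 on the log2 scale, beside 0.00 over all tested genes. This median is the value of *Cyp26b1*, whose groups overlapped and which did not pass the adjusted p. With 1 library left out the value of *Cyp26b1* ranged from -1.70 to -0.44. DESeq2's Wald test and limma-voom also gave 2 lower and 1 higher. In bulk samples, fewer cells of a type and less RNA per cell cannot be told apart.

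**Figure D1:**
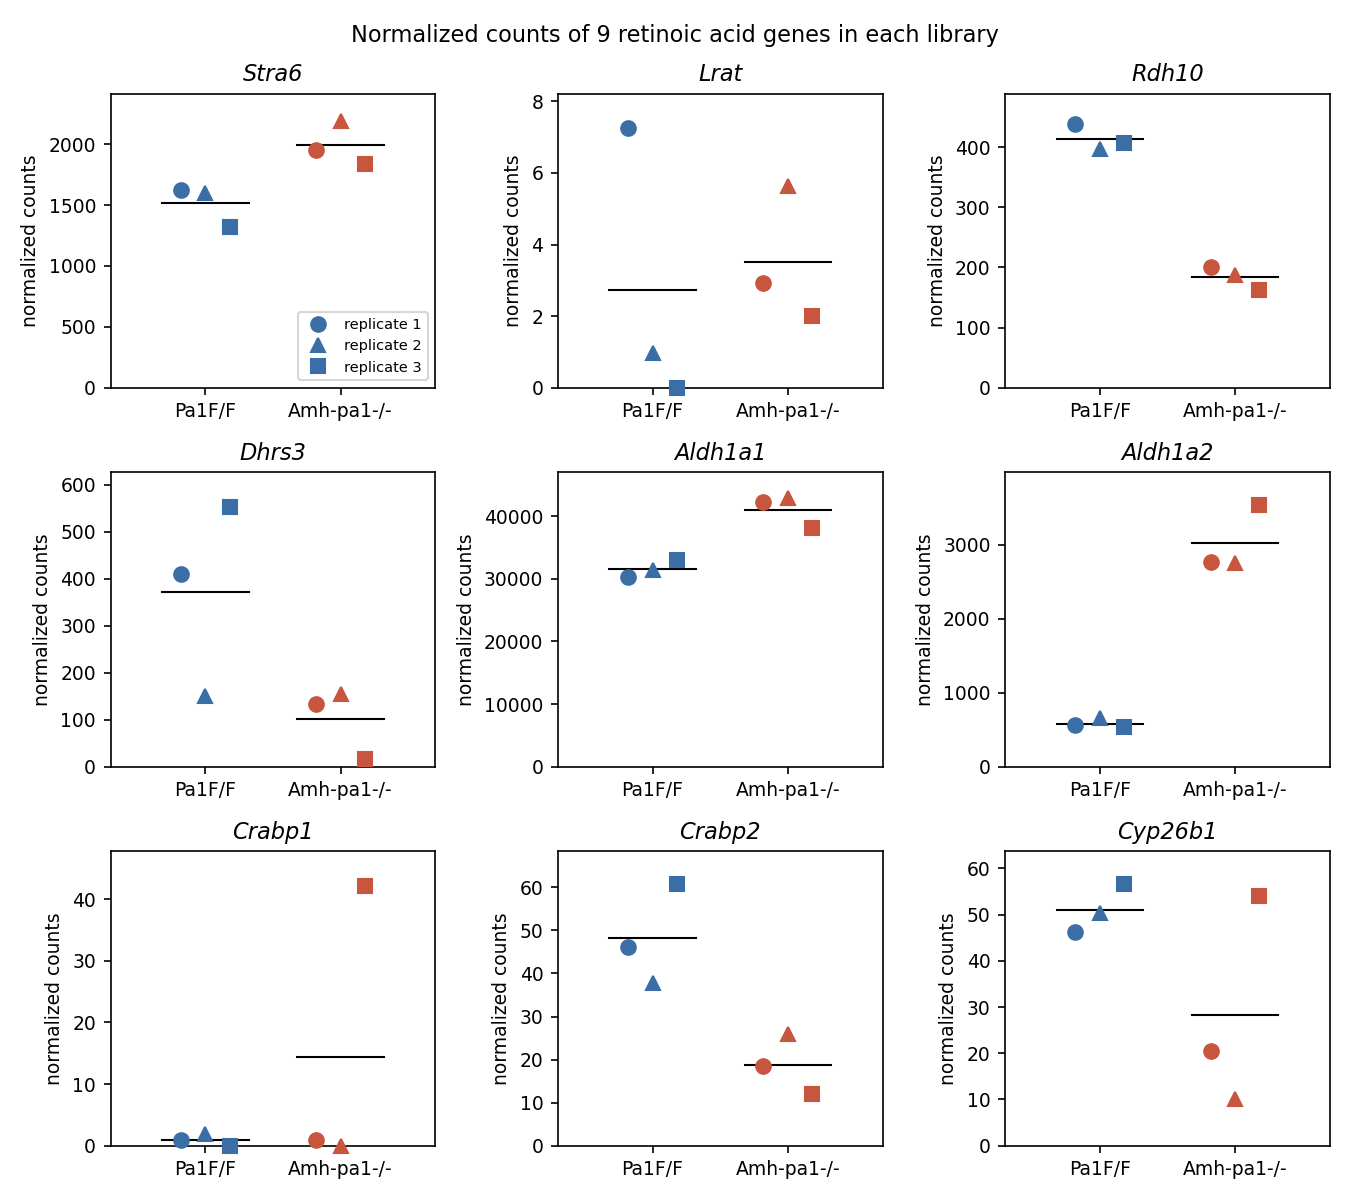
Normalized counts (y axis, linear, from 0) of the 9 genes in the 3 *Pa1F/F* (blue) and 3 *Amh-pa1-/-* (red) libraries; symbols mark the replicate number and lines the group mean. *Aldh1a2*, *Aldh1a1* and *Stra6* lie higher and *Rdh10* and *Crabp2* lower in all 3 *Amh-pa1-/-* libraries, while the groups overlap for the other 4 genes.

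*Stra6* (ENSMUSG00000032327, chr9:58063788-58153996, GRCm38, plus strand), the retinol uptake receptor, had 1623, 1602 and 1317 normalized counts in *Pa1F/F* and 1952, 2193 and 1836 in *Amh-pa1-/-* replicates 1 to 3. All *Amh-pa1-/-* libraries were above all *Pa1F/F* libraries. This was a log2 fold change of 0.40 (SE 0.10, n = 3 per group, edgeR adjusted p = 0.0241). The adjusted p rose to 0.0640 without *Pa1F/F* replicate 3, to 0.0608 without *Amh-pa1-/-* replicate 1 and to 0.0658 without *Amh-pa1-/-* replicate 2. *Ccdc33*, which overlaps *Stra6* on the other strand, had at most 5 counts.

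*Lrat* (ENSMUSG00000028003, chr3:82892579-82903973, minus strand), which esterifies retinol for storage, had 8, 1 and 0 counts in *Pa1F/F* and 3, 5 and 2 in *Amh-pa1-/-* libraries. The groups overlapped near the floor of 3 counts, and no difference was detectable at this depth. An antisense gene, *Rbm46os*, overlaps it with up to 5 counts, and since no strand setting is stated their reads cannot be told apart.

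*Rdh10* (ENSMUSG00000025921, chr1:16105774-16133734, plus strand), the retinol dehydrogenase that makes retinal, had 439, 397 and 407 normalized counts in *Pa1F/F* and 200.1, 188 and 163 in *Amh-pa1-/-* libraries. The 2 groups were far apart relative to their spread (414 ± 22.2 against 184 ± 18.8, SD, n = 3). The log2 fold change was -1.17 (SE 0.11, edgeR adjusted p = 0.000554). With any 1 library left out it lay between -1.23 and -1.09, called each time.

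*Dhrs3* (ENSMUSG00000066026, chr4:144892827-144928209, plus strand), which acts in the opposite direction on retinal, had 410.5, 151 and 553 normalized counts in *Pa1F/F* and 134, 154 and 16.0 in *Amh-pa1-/-* libraries. The groups overlapped, because *Pa1F/F* replicate 2 lay just below *Amh-pa1-/-* replicate 2, and *Amh-pa1-/-* replicate 3 was far below every other library. The log2 fold change was -1.88 (SE 0.75, edgeR adjusted p = 0.0945), the widest error of the 7 genes. Over the 4 close libraries alone, 2 per group, it was -1.74. These were chosen after the data were seen, for their small spread, so no p is given. With no filter on low counts the adjusted p was 0.0439.

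The ratio of *Rdh10* to *Dhrs3* reads within a library, which needs no scaling between libraries, was 1.07, 2.63 and 0.736 in *Pa1F/F* and 1.50, 1.22 and 10.2 in *Amh-pa1-/-* cells. The high value came from *Amh-pa1-/-* replicate 3, and the other 5 libraries did not separate by genotype. The mean log2 ratio differed by 1.06 (two-sided exact permutation test, p = 0.5, adjusted over 2 ratios 0.5), and this difference ranged from 0.0833 to 1.61 with 1 library left out, the lowest without *Amh-pa1-/-* replicate 3.

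*Aldh1a1* (ENSMUSG00000053279, chr19:20492715-20643462, plus strand), a retinal dehydrogenase, had 30304, 31478 and 33002 normalized counts in *Pa1F/F* and 42223, 42868 and 38094 in *Amh-pa1-/-* libraries. The groups did not overlap. The difference was 0.38 on the log2 scale (SE 0.09, edgeR adjusted p = 0.0195), below the fold threshold. The adjusted p passed 0.05 on leaving out *Pa1F/F* replicate 1 (0.0781), *Pa1F/F* replicate 3 (0.0502), *Amh-pa1-/-* replicate 1 (0.0748) or *Amh-pa1-/-* replicate 2 (0.0666), while the log2 fold change stayed between 0.35 and 0.43. Its antisense and pseudogene neighbours within the gene had at most 19 and 5 counts.

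*Aldh1a2* (ENSMUSG00000013584, chr9:71215789-71296243, plus strand), also a retinal dehydrogenase, had 558, 658 and 529.6 normalized counts in *Pa1F/F* and 2762, 2757 and 3530.0 in *Amh-pa1-/-* libraries. Each *Amh-pa1-/-* library was more than 4 times above the highest *Pa1F/F* library. On the log2 scale the increase was 2.37 (SE 0.13, edgeR adjusted p = 0.000108), and it lay between 2.25 and 2.47 with 1 library left out. The increase was as large over the 4 close libraries (2.34). *Aldh1a2* is also expressed by mesothelial cells in the embryo, and values of the mesothelial and rete testis list are given with the cell type markers.

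Set against *Aldh1a1* in the same library, *Aldh1a2* had 1.84, 2.09 and 1.60 reads per 100 *Aldh1a1* reads in *Pa1F/F* and 6.54, 6.43 and 9.27 in *Amh-pa1-/-* cells. The share was thus higher in each *Amh-pa1-/-* library than in any *Pa1F/F* library (7.41 ± 1.61 against 1.85 ± 0.243 per 100, SD, n = 3). The log2 ratio differed by 1.99 (two-sided exact permutation test, p = 0.1, the smallest this design allows, adjusted over 2 ratios 0.2). *Aldh1a1* remained the gene with more reads in every library.

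*Crabp2* (ENSMUSG00000004885, chr3:87948666-87953376, plus strand), which delivers retinoic acid to its nuclear receptors, had 46.2, 37.8 and 60.8 normalized counts in *Pa1F/F* and 18.5, 25.9 and 12.0 in *Amh-pa1-/-* libraries. The groups did not overlap, but the raw counts were only 12 to 58. The log2 fold change was -1.36 (SE 0.33, edgeR adjusted p = 0.0193). The call was lost without *Pa1F/F* replicate 1 (adjusted p = 0.0588), *Pa1F/F* replicate 3 (0.0713) or *Amh-pa1-/-* replicate 1 (0.0645), with log2 fold changes from -1.63 to -1.12 over all omissions.

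*Crabp1* (ENSMUSG00000032291, chr9:54764748-54773110, plus strand), the other cytoplasmic carrier, had 1, 2 and 0 counts in *Pa1F/F* and 1, 0 and 42 in *Amh-pa1-/-* libraries. Only *Amh-pa1-/-* replicate 3 was above the floor of 3 counts. The gene failed the filter, and fitted without the filter its adjusted p was 0.109. In the same library the spermatocyte markers summed to 7.43 CPM, against 2.65 to 4.35 CPM in the other 5, and the peritubular myoid markers to 1268 CPM, against 222 to 862 CPM. *Dazl* of the spermatogonia list was also highest there (45.1 against 6.76 to 16.8 normalized counts), though the sum of that list was not. *Kdr* of the endothelial list and *Amh* of the Sertoli list were highest there as well (485 and 365 normalized counts). The part of any of these cell types in the *Crabp1* value was not tested.

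*Cyp26b1* (ENSMUSG00000063415, chr6:84571414-84593908, minus strand), the hydroxylase that clears retinoic acid, had 46.2, 50.3 and 56.6 normalized counts in *Pa1F/F* and 20.5, 10.1 and 54.1 in *Amh-pa1-/-* libraries. *Amh-pa1-/-* replicate 3 lay within the *Pa1F/F* range and the other 2 below it. The log2 fold change was -0.84 (SE 0.52, edgeR adjusted p = 0.253). Without *Amh-pa1-/-* replicate 3 it was -1.70 with an adjusted p of 0.00544, so this 1 library decides the call. Without *Amh-pa1-/-* replicate 2 it was -0.44 (edgeR adjusted p = 0.482). The peritubular myoid markers *Myh11*, *Des* and *Actg2* were also lower in *Amh-pa1-/-* replicates 1 and 2 than in *Amh-pa1-/-* replicate 3 (*Des* 43.9 and 46.2 against 485 normalized counts). In replicates 1 and 2 these markers lay below all *Pa1F/F* libraries. *Acta2*, the highest marker of that list, went the other way, with 12312 and 11886 normalized counts in these replicates against 2537 to 3239 in *Pa1F/F*. The part of any of these markers in the *Cyp26b1* value was not tested. *Crabp1* and *Cyp26b1* were therefore both highest, among *Amh-pa1-/-* libraries, in the replicate that stood apart, and *Dhrs3* was lowest there.

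**Figure D2:**
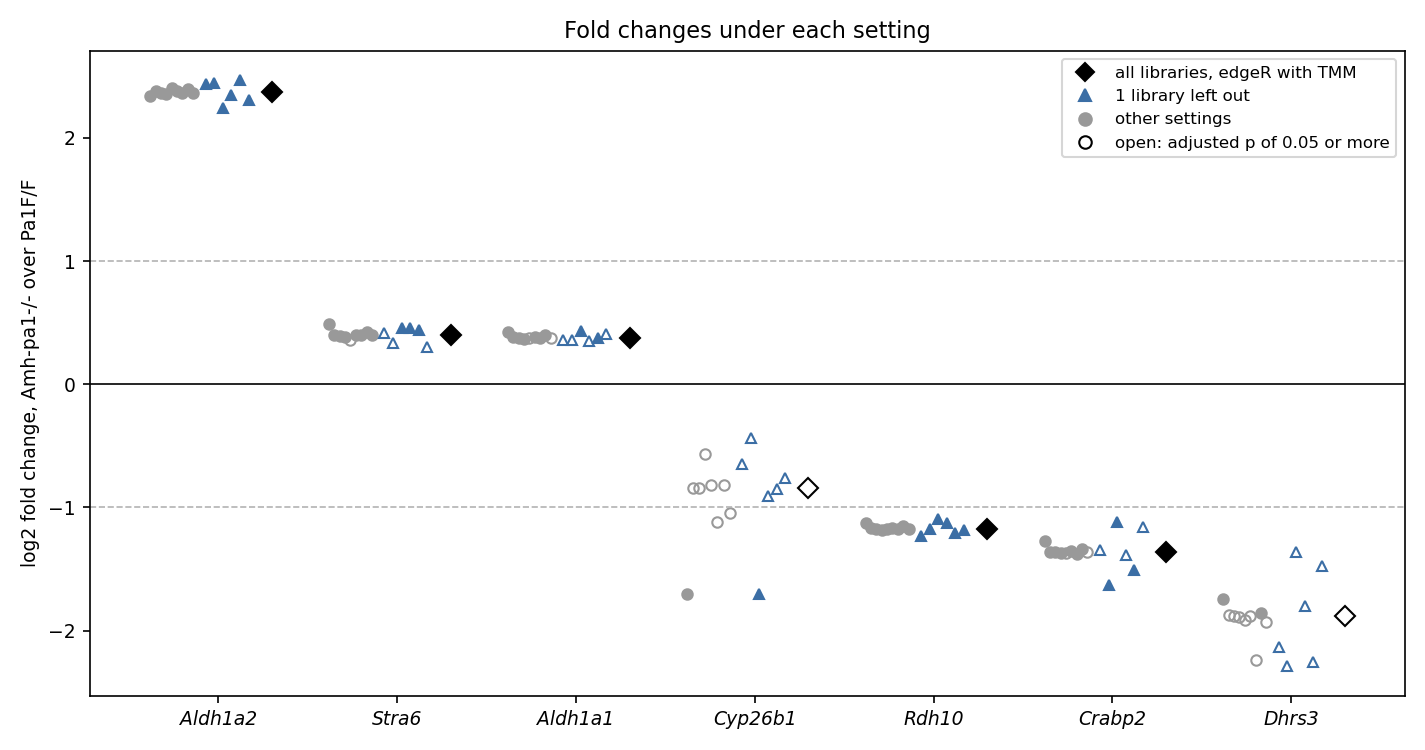
Log2 fold changes (y axis, *Amh-pa1-/-* over *Pa1F/F*) of the 7 tested genes in all libraries (diamonds), with 1 library left out (triangles) and under other settings (circles); open symbols have an adjusted p of 0.05 or more and dashed lines mark the fold threshold. *Aldh1a2* and *Rdh10* keep filled symbols past the threshold throughout, and *Cyp26b1* reaches -1.70 where *Amh-pa1-/-* replicate 3 is absent.

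Levels between genes were compared as RPKM (CPM per kilobase), by the length of the canonical transcript. *Aldh1a1* had the highest level of the 9 genes in both genotypes, 346 ± 14.8 in *Pa1F/F* and 450.2 ± 28.4 in *Amh-pa1-/-* cells (SD, n = 3). *Stra6* followed in *Pa1F/F* cells (19.3 ± 2.17), then *Aldh1a2* (14.6 ± 1.70), *Dhrs3* (9.22 ± 5.06), *Rdh10* (6.99 ± 0.375), *Crabp2* (3.53 ± 0.853) and *Cyp26b1* (0.647 ± 0.0665). In this order *Dhrs3* overlapped both its neighbours within 1 SD, and no other neighbours did. In *Amh-pa1-/-* cells *Aldh1a2* (75.8 ± 11.2) stood above *Stra6* (25.4 ± 2.32), and *Rdh10* (3.10 ± 0.317), *Dhrs3* (2.52 ± 1.85) and *Crabp2* (1.38 ± 0.507) followed, of which *Dhrs3* overlapped both its neighbours. *Crabp1* was at 0.0795 in *Pa1F/F* cells and at 1.20 ± 2.01 in *Amh-pa1-/-* cells, from 1 library, *Cyp26b1* was at 0.358 ± 0.291 in *Amh-pa1-/-* cells, and *Lrat* was lowest of the 9 in both (0.0348 and 0.0447). Per kilobase of coding sequence, which leaves out untranslated regions, *Stra6* (51.2) still stood first after *Aldh1a1* (1430) in *Pa1F/F* cells. *Dhrs3* (27.9), *Rdh10* (27.6) and *Aldh1a2* (25.5) were level within the spread of *Dhrs3*. By coding length *Crabp1* (0.157) lay below *Lrat* (0.269) in *Pa1F/F* cells, both near the floor, so the lowest place depends on the length used.

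**Figure D3:**
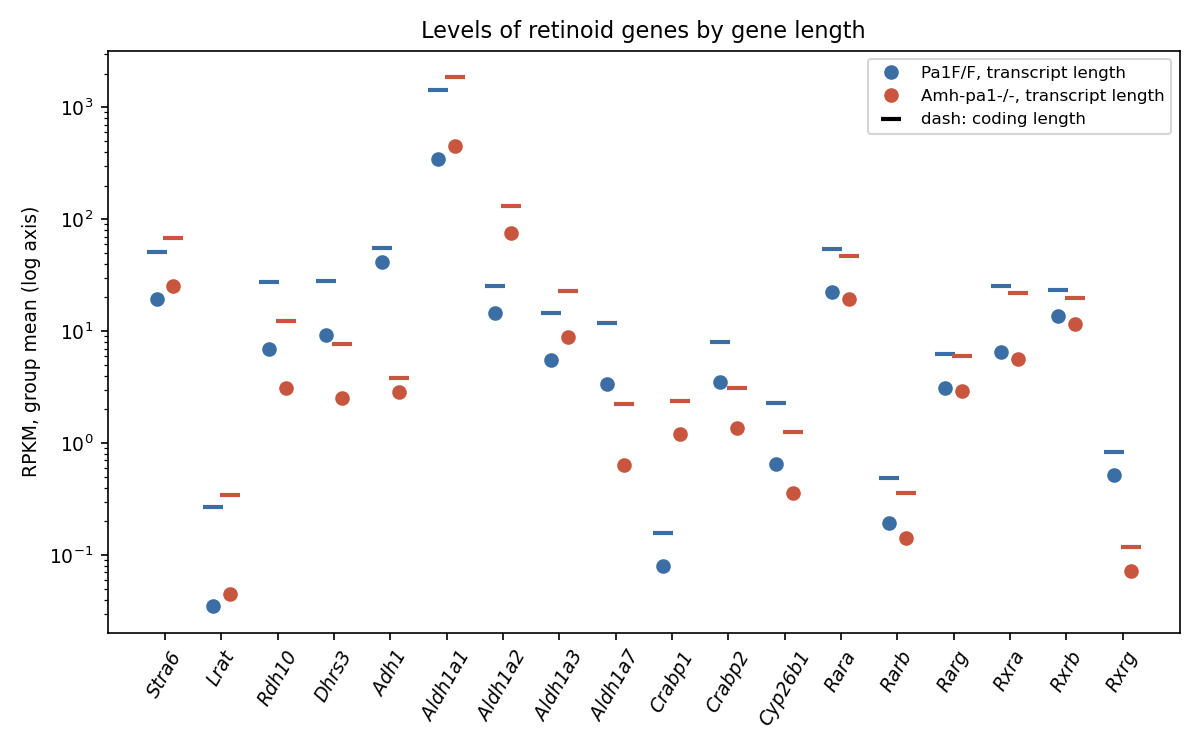
Group mean levels (log y axis, RPKM) of the 9 genes and of related enzymes and receptors in *Pa1F/F* (blue) and *Amh-pa1-/-* (red) cells; circles use transcript length and dashes coding length. *Aldh1a1* is highest under both lengths (346 and 450.2 by transcript length), and *Aldh1a2* moves from 14.6 to 75.8.

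The pathway holds further genes, and 71 were listed, of which 65 were in the table and 40 were tested. Of these, 7 were called lower and 2 higher, against 6.56% and 5.44% of all tested genes. The median log2 fold change was -0.13, beside 0.00 over all tested genes. By adjusted p alone 11 were lower and 6 higher, against 17.1% and 18.2% of all tested genes.

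Among 7 other enzymes that make retinal or retinoic acid, 3 were called lower. *Adh1*, an alcohol dehydrogenase that can oxidize retinol, had 774, 1099 and 890.4 normalized counts in *Pa1F/F* and 61.5, 73.2 and 55.1 in *Amh-pa1-/-* libraries. It was 14.6-fold lower with no overlap (log2 fold change -3.86, SE 0.18), and an antisense gene within it, *Gm16559*, had up to 23 counts. *Aldh1a7* fell from 256, 312 and 220.2 to 35.1, 39.4 and 73.1 normalized counts (log2 fold change -2.41, SE 0.29, edgeR adjusted p = 0.00155). It thus moved opposite to *Aldh1a1*, with which it shares much of the printed upstream sequence. The coding sequences of these relatives are also alike, so how reads were split between them is uncertain. *Adh7*, the other called alcohol dehydrogenase, had 29 counts or fewer in every library (log2 fold change -1.66, SE 0.31). *Aldh1a3*, the third retinal dehydrogenase of the family, was not called (0.67, SE 0.26, edgeR adjusted p = 0.0832), with 332, 356 and 294 against 398, 410.1 and 753 normalized counts, the last in the replicate that stood apart.

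Of 11 genes that reduce retinal or make and split retinyl esters, *Dhrs7* was called lower (log2 fold change -1.29, SE 0.07). *Lpl*, a lipase that frees retinol from lipoprotein esters, passed the adjusted p but not the fold threshold (0.94, SE 0.11). Without *Amh-pa1-/-* replicate 3 it was 1.04 and called higher. Of 4 other binding and uptake genes, 1 was called lower and 1 higher. *Cd36*, a scavenger receptor, fell from 297, 98.8 and 332 to 29.3, 25.9 and 11.0 normalized counts, and its lowest *Pa1F/F* value came from replicate 2, without which the log2 fold change was -3.83 in place of -3.45. *Lrp2*, the endocytic receptor megalin, which takes up vitamins bound to carrier proteins, rose from 111, 34.9 and 174 to 3375, 3582 and 1752 (log2 fold change 4.77, SE 0.54). This was 4.35 without *Pa1F/F* replicate 2 and 5.04 without *Amh-pa1-/-* replicate 3. *Fabp5*, a fatty acid carrier that also binds retinoic acid, was not called (-0.85, edgeR adjusted p = 0.0752), but without *Amh-pa1-/-* replicate 3 it was called lower (-1.33, edgeR adjusted p = 0.000320). *Lrp2* had the largest change of the retinoid genes tested.

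Of the other retinoic acid hydroxylases, *Cyp26a1* had at most 8 and *Cyp26c1* at most 4 counts in any library and were not tested. *Cyp2s1*, at 5.89 RPKM in *Pa1F/F* and 3.28 in *Amh-pa1-/-* cells, stood above *Cyp26b1* and had a log2 fold change of -0.85 (SE 0.34, edgeR adjusted p = 0.0938). Without *Pa1F/F* replicate 2 this was -1.11 with an adjusted p of 0.0318, and the gene was called lower.

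No retinoic acid receptor, partner or cofactor was called by edgeR among the 11 tested, although 4 had an unadjusted p under 0.05. *Ncoa1*, *Ncoa2* and *Ncoa3*, which are coactivators, passed the adjusted p with log2 fold changes of -0.30 to -0.39. *Rara* had a log2 fold change of -0.20 (SE 0.08, edgeR adjusted p = 0.0845), *Rarg* of -0.07 (SE 0.20, 0.803), *Rxra* of -0.20 (SE 0.09, 0.140) and *Rxrb* of -0.24 (SE 0.11, 0.151). *Rarb* had 15 counts or fewer in every library (-0.43, SE 0.70, 0.665) and overlaps *Top2b*, which had up to 2771. *Rxrg* had 7, 41 and 5 counts in *Pa1F/F* and 3, 2 and 2 in *Amh-pa1-/-* libraries. It was not tested by edgeR or limma-voom, which used the same filter. DESeq2's Wald test, run without that filter, called it lower. None of the others was called by limma-voom. By transcript length *Rara* had the highest level of the 6 receptors (22.4 in *Pa1F/F* and 19.4 in *Amh-pa1-/-* cells, RPKM).

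Of 8 tested genes known to respond to retinoic acid, 2 were called lower and 1 higher. *Tgm2*, a transglutaminase, had 2117, 2454 and 2197 normalized counts in *Pa1F/F* and 844, 951 and 859 in *Amh-pa1-/-* libraries (log2 fold change -1.35, SE 0.08) and overlaps *Rprd1b* on the other strand, which had up to 476 counts. *Rai14*, an actin-binding protein of the ectoplasmic specialization, had a log2 fold change of -1.01 (SE 0.13), at the edge of the threshold. Without *Amh-pa1-/-* replicate 3 it was -0.87, short of the threshold, and without *Pa1F/F* replicate 1 it was -0.99. *Rarres1* was higher at 1.09 (SE 0.23), with 237, 192 and 168 normalized counts in *Pa1F/F* and 375, 335 and 563 in *Amh-pa1-/-* libraries. Its call was lost without *Amh-pa1-/-* replicate 3, the highest library (0.84), and without *Pa1F/F* replicate 3 (0.99). *Stra8*, the germ cell gene induced at meiotic entry, had at most 2 counts in any library.

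Markers of other cell types that an isolation of Sertoli cells can hold moved with genotype as well, and the markers named here for their calls were chosen after their values were seen. Leydig cell markers summed to 838 to 933 CPM in *Pa1F/F* and 177 to 333 CPM in *Amh-pa1-/-* libraries, and 3 of 4 tested were called lower (*Star*, *Cyp11a1* and *Hsd3b1*), while *Cyp17a1* and *Insl3*, which define the cell type, had 3 counts or fewer. Macrophage markers summed to 96.2 to 104 and 70.7 to 91.8 CPM, with 5 of 7 called lower (*Adgre1*, *Cd68*, *Csf1r*, *C1qc* and *Cd14*) and *Mrc1*, the highest, not called. Spermatogonia markers summed to 4.94 to 8.06 and 2.30 to 5.38 CPM, with *Gfra1*, *Kit* and *Ddx4*, 3 of 3, called lower. The spermatogonia sums of the groups overlapped, and *Dazl* and *Nanos3* of that list had higher means in *Amh-pa1-/-* cells (10.6 against 20.2 and 3.88 against 8.24 normalized counts). *Hsd17b3* of the Leydig list was not called and was highest in *Amh-pa1-/-* replicate 3 (667 normalized counts). The called markers of these 3 lists were lower, as *Rdh10* and *Crabp2* were, and the part of these cell types in those results was not tested. Endothelial markers summed to 116 to 122 and 63.9 to 101 CPM (1 of 4 lower, *Pecam1*, and 1 higher, *Vwf*), with *Cdh5* highest and *Emcn* and *Cldn5* at 3 counts or fewer.

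Peritubular myoid markers summed to 222 to 283 CPM in *Pa1F/F* and 828 to 1268 CPM in *Amh-pa1-/-* libraries, with 1 of 5 called higher, *Acta2* (2968 against 13194 normalized counts), which carried the sum. The other 4 tested, *Myh11*, *Cnn1*, *Des* and *Actg2*, were high only in *Amh-pa1-/-* replicate 3. *Myh11* had 649, 481 and 580.0 normalized counts in *Pa1F/F* and 216, 164 and 1605 in *Amh-pa1-/-* libraries, and *Actg2* 183, 124 and 164 against 66.4, 51.8 and 730.4. In *Amh-pa1-/-* replicates 1 and 2 *Myh11*, *Des* and *Actg2* lay below every *Pa1F/F* library, and *Cnn1* lay within or below the *Pa1F/F* range. Mesothelial and rete testis markers summed to 380 to 400 and 392 to 497 CPM, mostly from *Wt1*, which Sertoli cells also express. Of 9 tested, *Upk3b*, *Lrrn4* and *Krt19* were called higher, with *Upk3b* at 8.62 against 270.4 and *Krt19* at 1.58 against 55.5 normalized counts on average. Means were lower for *Msln* (61.9 against 43.0), *Krt8* (77.6 against 45.6) and *Cdh1* (26.9 against 19.3), none past the adjusted p. The groups did not overlap for *Krt8* and *Cdh1*. The part of either list in the *Aldh1a2* result was not tested. Spermatocyte markers (2.65 to 4.35 against 3.25 to 7.43 CPM, *Dmc1* highest) and spermatid markers (7.49 to 8.16 against 6.82 to 7.57 CPM, *Spaca1* highest, with *Acrv1*, *Prm1* and *Tnp2* at 3 counts or fewer) were low in both groups. Of 19 tested Sertoli cell markers, *Inha*, *Inhbb* and *Defb19* were called lower and *Cst9* higher.

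Across the 6 libraries, the gene whose log2 CPM followed each of the 7 tested genes most closely was found among at least 11717 genes with a mean of 50 or more normalized counts. This was *Smpdl3b* for *Aldh1a2* (Pearson's r 0.9997, with 320, 361, 298, 1326, 1274 and 1550.1 normalized counts in *Pa1F/F* and then *Amh-pa1-/-* libraries) and *Creb3l2* for *Rdh10* (0.999). *Enpp4* was most like *Aldh1a1* (0.998), *Usp34* most like *Dhrs3* (0.998), *Gm867* most like *Crabp2* (0.996), *Ankra2* most like *Cyp26b1* (0.993) and *Samm50* most like *Stra6* (0.985). The points are 6 libraries of 2 groups that share depth and scaling. *Aldh1a2* had 986 genes with r over 0.95, *Rdh10* 866, *Aldh1a1* 585, *Crabp2* 321, *Dhrs3* 212, *Cyp26b1* 57 and *Stra6* 53. These are descriptions, and no test was made of them.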

How the data were processed

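RNA-seq libraries from 3 *Pa1F/F* and 3 *Amh-pa1-/-* Sertoli cell samples were analysed, grouped by the labels. The authors prepared NEBNext Ultra libraries, aligned reads to GRCm38 with HISAT2 2.1.0 and deposited read counts per gene from HTSeq 0.6.0, without normalization and with no strand setting stated. The same table holds the authors' comparison (mean, fold change, p-values), which was not used.

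Genes were filtered (filterByExpr, minimum count 10, total 15), scaled by TMM and tested with edgeR 4.0.16 (R 4.3.3) by genotype, with Benjamini-Hochberg adjustment over 14919 genes. The standard error is the absolute log2 fold change divided by the square root of F. Normalized counts are counts scaled to the mean effective library size. Steps were tested on simulated data. Promoters are RefSeq GRCm38.p6. Transcript lengths come from GENCODE canonical transcripts. Figures were made with Python 3.11.15. The alternatives are given under the dependence on processing. *Rdh7*, *Sdr16c5*, *Sdr16c6*, *Ttr*, *Hoxb1*, *Cdx1*, *Prm2* and *Tnp1* were listed and not analysed here, and some other genes are not reported here.

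The 9 genes and the lists were chosen with earlier results of these data known. Named are all 9 genes, called genes of the retinoid lists, the RAR and RXR receptors, the markers highest or at 0 in each list and the most similar gene. Others were chosen after their values were seen.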

Additional observations from a re-analysis of the deposited data

How the results depend on the processing

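The calls of *Aldh1a2* and *Rdh10* held under all 15 alternatives run: DESeq2 size factors, library size only, DESeq2 1.42.0, limma-voom (limma 3.58.1), no filter, 10 or more counts in all libraries, the replicate block, close replicates summed, the 4 close libraries only (chosen after the data were seen, for their small spread) and each library left out. No direction reversed. The number of the 9 genes called lower, 2 in all libraries, was 1 with the replicate block and 1 with close replicates summed, in both cases without *Crabp2*, 3 with no filter (*Dhrs3* added), 4 over the 4 close libraries and 1 to 3 with 1 library left out, and the number called higher was 1 throughout except 3 with no fold threshold. Replicate numbers did not pair the samples (correlations of deviations 0.108, -0.164 and -0.179), and the block gave *Crabp2* an adjusted p of 0.0655 and all genes 842 lower and 716 higher calls. Over all genes, summing the close replicates left 455 lower and 428 higher, no fold threshold gave 2548 and 2718, and leaving out 1 library gave 796 to 1216 and 670 to 860. Of the other retinoid genes, 1 was higher with close replicates summed and 1 over the 4 close libraries, 11 were lower and 6 higher with no fold threshold, and with 1 library left out 6 to 8 were lower and 1 to 2 higher. Requiring 10 counts in every library removed *Cyp26b1*, *Adh7* and *Rarb*. *Rai14* and *Rarres1*, near the fold threshold, lost their calls in 4 alternatives each, and *Cd36* and *Adh7* with close replicates summed (adjusted p of 0.0651 and 0.0668). *Aldh1a1* had an adjusted p of 0.0917 with the replicate block and 0.189 with close replicates summed, and *Stra6* 0.0970 with close replicates summed. Summing leaves fewer samples; the cause of the other differences was not tested. *Crabp1* and *Lrat* failed the filter on low counts and have no result in the main fit.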
